A study of Glycine max with 12 samples.

Results

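GLYMA_10G198800 (named LGB1 in the deposited table), GLYMA_10G199000 (unnamed there) and GLYMA_10G199100 (named LBA) are 3 leghaemoglobin genes that lie side by side on chromosome 10, out of 49128 genes in the table. They were picked by identifier, with their high level in control+OP roots over control roots already known, so that difference is described here without a test. The table holds root RNA-seq of soybean (Glycine max, cultivar Williams 82) in 12 libraries, 3 for each of 4 groups. The groups are control+OP and control, and Cd+OP and Cd, where Cd is cadmium and OP stands for Oceanobacillus picturae, the bacterium of the series title. A dose of 70 mg/L Cd is written on all 12 samples, control groups included, and which plants received it is not told by that label. The sources used here give no plant age, exposure time or inoculation, and say nothing of nodules or rhizobia.

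Leghaemoglobins are haem proteins made by the legume host in the infected cells of root nodules. They bind oxygen and carry it to the respiring bacteroids while keeping free oxygen low enough for nitrogenase, the nitrogen-fixing enzyme, to work. They are among the most abundant proteins of a nitrogen-fixing nodule and give it its pink colour. Plants also have globins outside nodules, and these are found in ordinary root tissue.

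All 3 genes carry the same annotation, which is oxygen carrier activity, oxygen transport, oxygen and haem binding, and nodulation. They lie on the minus strand, LGB1 at 42995962 to 42997094, GLYMA_10G199000 at 43004558 to 43005947 and LBA at 43009251 to 43011119 (positions as deposited; the sources used here name no genome build). The block spans 15158 bases. The gaps are 7463 and 3303 bases, and the table lists 0 genes between them. How far such close relatives share reads cannot be seen from the table, so the split between them is uncertain.

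Total counts were 49904227 to 57693211 per library, and the correlation within groups was 0.992 to 0.994 (across genes, which are not independent replicates). Separate plants are not named in the labels, so p-values measure only the spread between these libraries. Root genes (Casparian strip and root hair terms, 22 genes, 0 of them at 0 throughout) summed to 192 to 195 FPKM in control+OP, 190 to 194 in control, 176 to 183 in Cd+OP and 156 to 157 in Cd. FPKM is fragments per kilobase, scaled to library size. Green tissue genes (209 genes, 4 at 0 throughout) summed to 204 to 208, 281 to 302, 168 to 174 and 128 to 130 FPKM in the same groups. Genes with the nutrient reservoir activity term (103 genes, 3 at 0 throughout) summed to 1183 to 1220, 875 to 940, 1087 to 1098 and 414 to 435 FPKM in the same order. That list also holds genes with cell wall and apoplast terms, such as GLYMA_16G060800, so it does not stand for seed storage alone. In Cd+OP against Cd 9 of 17 tested root genes rose and 4 fell, and 24 of 50 green tissue genes rose and 5 fell. Of 45 tested nutrient reservoir genes, 31 rose and 5 fell. The median log2 fold changes of these lists were 3.87, 0.44 and 1.27. Over all tested genes 36.4% rose and 34.6% fell (a gene is called at an adjusted p under 0.05, edgeR). The part of these lists in the results was not tested.

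All 3 genes stood high in control+OP roots, at 32.9 to 127 FPKM, and none exceeded 3.15 FPKM in the other 9 libraries. LGB1, the most abundant, had 127, 121 and 116 FPKM in control+OP and 0.982, 1.54 and 1.67 FPKM in control. With cadmium it had 3.15, 2.63 and 2.56 FPKM in Cd+OP and 1.02, 0.495 and 1.48 FPKM in Cd. The order of its groups was therefore control+OP, Cd+OP, then control and Cd, whose libraries overlapped, while the other neighbours in that order did not. The underlying counts were 4714 to 5173 in control+OP, 44 to 68 in control, 109 to 129 in Cd+OP and 21 to 62 in Cd.

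GLYMA_10G199000 had 61.1, 58.3 and 58 FPKM in control+OP and 0.31, 0.366 and 0.584 FPKM in control. It had 1.01, 0.65 and 1.15 FPKM in Cd+OP and 0.558, 0.306 and 1.31 FPKM in Cd. Only its control+OP libraries stood apart, since its Cd library 3 lay above all 3 of its Cd+OP libraries.

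LBA, the least abundant, had 32.9, 33.3 and 33.6 FPKM in control+OP and 0, 0.254 and 0.237 FPKM in control. It had 0.569, 0.574 and 0.708 FPKM in Cd+OP and 0.249, 0.447 and 0.7 FPKM in Cd. Its control+OP libraries likewise stood apart from all others, its Cd+OP and Cd libraries overlapped, and so did its Cd and control libraries. The value of 0 in control library 1 rests on a count of 0, against counts of 14 and 12 in the other control libraries, so at this depth no difference among such values can be read.

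**Figure D1:**
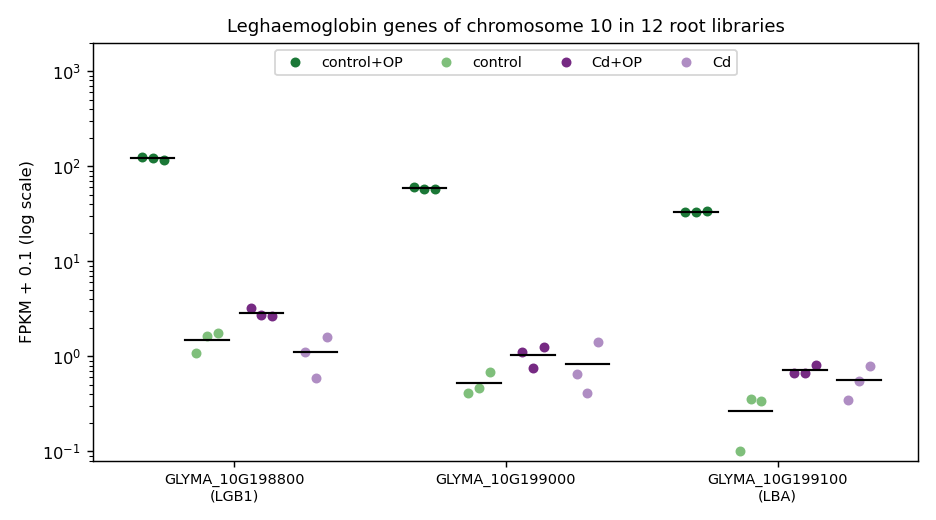
FPKM of each leghaemoglobin gene in each library (points; log scale after adding 0.1) with the group mean (bar), 3 libraries a group. The control+OP libraries of the 3 genes lie between 32.9 and 127 FPKM, and every library of the other groups lies at or below 3.15 FPKM.

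On the log2 scale of the edgeR fit, control+OP lay above control by 6.44 ± 0.159 for LGB1, 7.09 ± 0.233 for GLYMA_10G199000 and 7.62 ± 0.285 for LBA (SE, n = 3 per group; a description, with no test). Cd+OP against control+OP gave log2 -5.51 ± 0.146 for LGB1, -6.03 ± 0.21 for GLYMA_10G199000 and -5.80 ± 0.237 for LBA. Cd against control gave -0.46 ± 0.245, 0.76 ± 0.362 and 1.48 ± 0.462 in the order LGB1, GLYMA_10G199000 and LBA. These comparisons share the control+OP or the control libraries with the difference that brought the genes to notice, so they too are given without a test (76.2% of all genes were called in Cd against control and 66.7% in Cd+OP against control+OP). In whole roots, fewer cells that express a gene and less RNA of it per cell cannot be told apart.

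Cd+OP against Cd compares 6 libraries outside that difference, and sets roots with OP against roots without it under cadmium. Earlier results of these data were known when the genes were chosen, so its p-values are not shown to be independent of the choice. The estimate of spread behind them also came from all 12 libraries, those of control+OP and control included. LGB1 rose, averaging 2.78 ± 0.322 FPKM in Cd+OP and 0.999 ± 0.494 FPKM in Cd (SD, n = 3 each). Its log2 fold change was 1.39 ± 0.216 (SE; adjusted p = 3.56e-06, edgeR), and the lowest Cd+OP library lay above the highest Cd library. Fitted on the 6 compared libraries alone, LGB1 had an adjusted p of 7.36e-04 (edgeR). The other 2 genes averaged 0.693 FPKM (GLYMA_10G199000) and 0.415 FPKM (LBA) over the 9 libraries outside control+OP, so they met the minimum of 1 FPKM only through control+OP, and their values are given with little weight. GLYMA_10G199000 had a mean of 0.936 ± 0.258 FPKM in Cd+OP and 0.724 ± 0.521 FPKM in Cd. Its log2 fold change was 0.29 ± 0.31 (adjusted p = 0.405, and 0.527 with no minimum, edgeR), with a 95% interval from -0.32 to 0.90. LBA had a mean of 0.617 ± 0.079 FPKM in Cd+OP and 0.465 ± 0.226 FPKM in Cd, with a log2 fold change of 0.33 ± 0.352 (adjusted p = 0.404, and 0.52 with no minimum, edgeR) and a 95% interval from -0.36 to 1.02. The 95% interval for LGB1 was 0.96 to 1.81. Rises up to 0.90 and 1.02 lie within the intervals of the other 2 genes, and whether the 3 genes differ in this change was not tested.

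Across all 30340 genes tested, 36.4% were called higher in Cd+OP than in Cd and 71.0% were called in either direction in that comparison, so the call for LGB1 does not by itself set it apart. GLYMA_10G199000 and LBA met the minimum of 1 FPKM only through control+OP, so leaving out libraries shows for them only how unsteady the values are. The value for GLYMA_10G199000, on counts of 25, 14 and 56 in Cd, hung on single Cd libraries. Without Cd library 3 the log2 fold change was 0.99 (adjusted p = 0.00427, edgeR), which is no evidence of a rise. Without Cd library 2 it was -0.068 (adjusted p = 0.84, edgeR). For LBA it was 0.75 without Cd library 3 (adjusted p = 0.0928, edgeR) and 0.023 without Cd library 1 (adjusted p = 0.957, edgeR). LGB1 stayed called in all 21 alternatives, between 0.95 and 1.77.

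Together the 3 genes summed to 207 to 221 FPKM in control+OP, 1.29 to 2.49 FPKM in control, 3.86 to 4.73 FPKM in Cd+OP and 1.25 to 3.49 FPKM in Cd. Their reads made up 0.0175 to 0.0183% of all counts in control+OP libraries and 0.00032 to 0.000398% in Cd+OP libraries. By FPKM, LGB1 ranked 475 to 540 among all genes of a control+OP library, GLYMA_10G199000 ranked 1450 to 1523 and LBA 2813 to 2931. In the other 9 libraries the highest rank of LGB1 was 20901, and that was in Cd+OP.

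The proportions of the 3 genes were steady in control+OP: LGB1 held 55.8 to 57.4% of their summed FPKM, GLYMA_10G199000 27.4 to 28% and LBA 14.9 to 16.2%. In Cd+OP LGB1 held 58 to 68.3%, in control 67 to 76% and in Cd 39.7 to 55.8%. The Cd shares rest on 58 to 154 counts for the 3 genes together and the control shares on 59 to 105, against 8825 to 9475 in control+OP, so their spread cannot be set against it. The spread between libraries differed in the same way: the coefficient of variation of LGB1 was 4.51% in control+OP, 26.1% in control, 11.6% in Cd+OP and 49.4% in Cd.

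**Figure D2:**
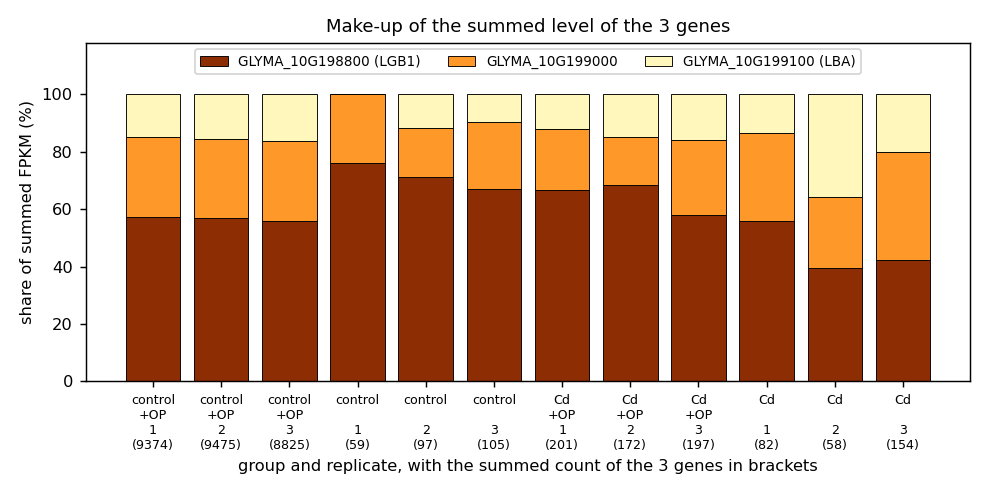
Share of each leghaemoglobin gene in the summed FPKM of the 3 genes, in percent, for each library, with the summed count of the 3 genes under each bar. The 3 control+OP bars are nearly alike, with LGB1 at 55.8 to 57.4%, while the bars of the other groups, which rest on 58 to 201 counts, vary more.

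The genes next to the block did not share its large gap between control+OP and control, with 1 partial exception. GLYMA_10G198700, directly beside LGB1 on the same strand and without a functional term in the table, averaged 4.96 ± 0.312 FPKM in control+OP and 0.471 ± 0.119 FPKM in control, and 0.472 ± 0.156 FPKM in Cd+OP and 0.0517 ± 0.0224 FPKM in Cd (SD, n = 3 each). As a description, it was higher with OP both without and with cadmium, by log2 3.40 ± 0.194 and 3.07 ± 0.302 (SE). Its mean lay under 1 FPKM in every group but control+OP, so it met the minimum of 1 FPKM only through that group. Its counts in Cd were 12, 20 and 8, so the value with cadmium has little weight. On the other side, GLYMA_10G199200 averaged 0.777 FPKM in control+OP and 0.512 FPKM in control and did not reach the mean of 1 FPKM needed for the test. The remaining 4 neighbours, GLYMA_10G198500, GLYMA_10G198600, GLYMA_10G199300 and GLYMA_10G199500, stood at 4.25 to 34.9 FPKM in every group, and control+OP against control gave log2 values of -0.66 to 0.08 for them. In Cd+OP against Cd GLYMA_10G198500 was higher by log2 1.19 ± 0.0934 (SE), at means of 10.2 and 4.25 FPKM. GLYMA_10G198600, GLYMA_10G199300 and GLYMA_10G199500 had log2 values of -0.047, -0.28 and 0.075 there.

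**Figure D3:**
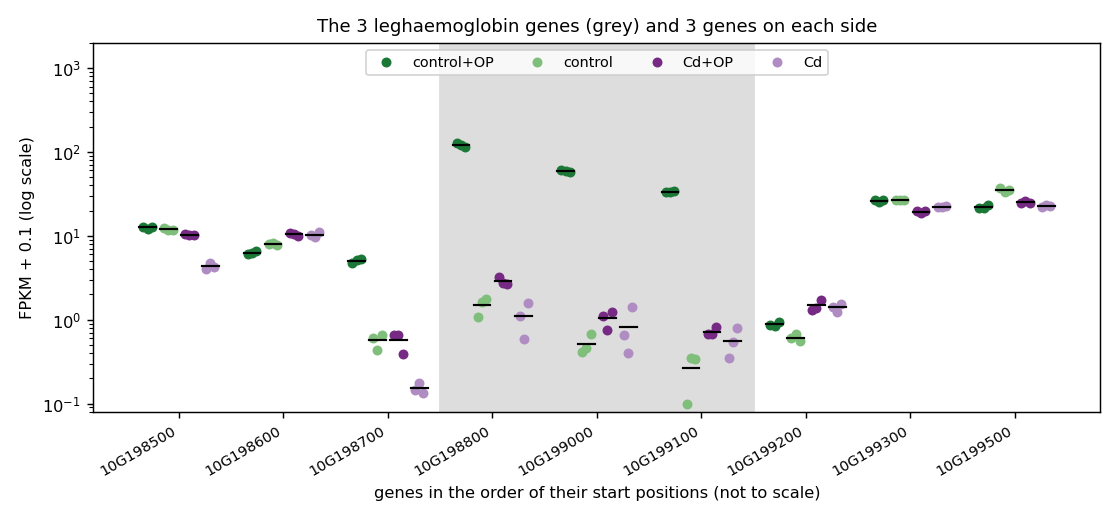
FPKM (log scale after adding 0.1) of the 3 leghaemoglobin genes, on grey, and of 3 genes on each side, in the order of their positions and not to scale. Points are libraries and bars group means (n = 3). GLYMA_10G198700 is the neighbour with its highest level in control+OP by a wide margin, 4.96 against 0.471 FPKM in control, and the other 5 show no such gap.

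The table annotates 9 genes as oxygen carriers, and 4 of them also carry the nodulation term: the 3 genes above and GLYMA_20G191200 on chromosome 20 (42993081 to 42994294, plus strand). GLYMA_20G191200 followed them closely. It had 101, 95.9 and 92.2 FPKM in control+OP and 0.524, 1.74 and 1.01 FPKM in control, and 2.37, 2.12 and 3.16 FPKM in Cd+OP and 0.647, 0.356 and 1.41 FPKM in Cd. It rose in control+OP against control (log2 6.45 ± 0.226, adjusted p = 2.78e-18, edgeR) and in Cd+OP against Cd (log2 1.58 ± 0.299, adjusted p = 4.89e-05, edgeR). The difference between these changes was itself past the threshold, at log2 -4.88 ± 0.441 (adjusted p = 5.57e-10, edgeR, a test in which 63.9% of all genes were called). In control+OP the ratio of LGB1 to GLYMA_20G191200 was 1.25 to 1.26 in all 3 libraries. It varied more elsewhere, at 0.887 to 1.88 in control, 0.812 to 1.33 in Cd+OP and 1.05 to 1.57 in Cd. There GLYMA_20G191200 had only 16 to 138 counts per library. How far it shares reads with the 3 genes cannot be seen from the table either.

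The other 5 oxygen carriers, without the nodulation term, did not go with the leghaemoglobin genes. GLYMA_11G121800, the globin with the highest mean FPKM in control, Cd+OP and Cd roots, had 95.6, 97.5 and 83.1 FPKM in control+OP and 684, 621 and 637 FPKM in control. It had 319, 331 and 342 FPKM in Cd+OP and 223, 221 and 211 FPKM in Cd, with no overlap between any groups. It fell in control+OP against control (log2 -2.81 ± 0.046, adjusted p = 6.51e-25, edgeR) and rose in Cd+OP against Cd (log2 0.53 ± 0.043, adjusted p = 5.72e-11, edgeR). Its neighbour GLYMA_11G121700 averaged 1.1 ± 0.476 FPKM in control+OP and 13.7 ± 0.417 FPKM in control, and 3.88 ± 0.481 FPKM in Cd+OP and 1.11 ± 0.421 FPKM in Cd (SD, n = 3 each). It too fell without cadmium and rose with it (log2 -3.61 ± 0.229 and 1.71 ± 0.234). Control+OP roots held the leghaemoglobins at their highest level and GLYMA_11G121800 at its lowest, while GLYMA_11G121700 overlapped between control+OP and Cd.

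GLYMA_04G079200 fell with OP both without and with cadmium (log2 -1.28 ± 0.059 and -0.83 ± 0.0586), and so did GLYMA_14G140400 (log2 -0.44 ± 0.0508 and -1.02 ± 0.0509). GLYMA_06G080700 stayed at or below 0.64 FPKM in all libraries and was not tested. The list of globins also holds GLYMA_07G232900, annotated as leghaemoglobin reductase and dihydrolipoyl dehydrogenase, an enzyme activity that returns oxidised leghaemoglobin to its oxygen-binding form. It averaged 45.3 ± 1.52 FPKM in control+OP and 43 ± 2.11 FPKM in control and did not pass (log2 0.08 ± 0.04, adjusted p = 0.0785, edgeR). It averaged 32.9 ± 1.31 FPKM in Cd+OP and 51 ± 0.889 FPKM in Cd, a fall of log2 -0.70 ± 0.0403 (adjusted p = 4.84e-14, edgeR). Of the 6 tested genes of this list, 1 rose and 4 fell in control+OP against control, where 34.6% of all genes were called higher and 27.2% lower, and 3 rose and 3 fell in Cd+OP against Cd.

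**Figure D4:**
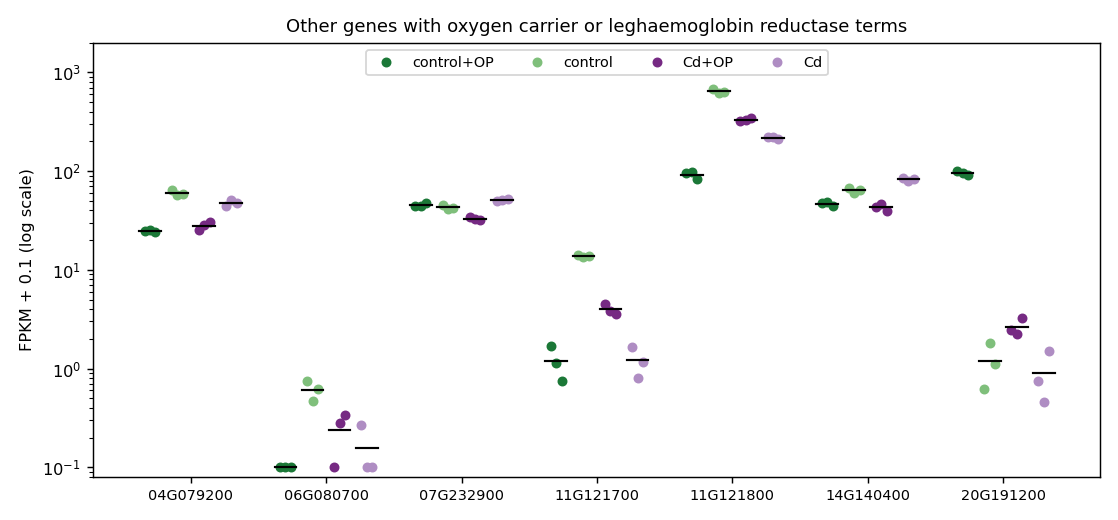
FPKM (log scale after adding 0.1) of the 7 other genes found by oxygen carrier or leghaemoglobin terms, named without their common prefix GLYMA_. Points are libraries and bars group means (n = 3). GLYMA_20G191200 has its highest level in control+OP (92.2 to 101 FPKM), and GLYMA_11G121800 its lowest (83.1 to 97.5 FPKM).

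Of the nodulation list outside the globins, 19 of 22 genes had their highest group mean in control+OP, although for DGD2 (GLYMA_18G228900) the margin over Cd was small. The exceptions were SS, GLYMA_19G200000 and GLYMA_20G245300. The share of all genes with their highest group mean in control+OP was not counted, so the 19 of 22 is a description only. This list of 22 genes, scored in earlier results of these data and so no independent evidence, summed to 1366 to 1403 FPKM in control+OP, 552 to 586 in control, 265 to 276 in Cd+OP and 147 to 168 in Cd, and 0 of its genes were at 0 throughout. SS alone averaged 189 FPKM in control+OP and 472 FPKM in control. In control+OP against control 17 of its 20 tested genes rose and 2 fell, with a median log2 fold change of 4.98 against 0.06 over all genes (34.6% of which rose and 27.2% fell). In Cd+OP against Cd 12 rose and 3 fell, with a median of 1.13 against 0.0011 over all genes (36.4% of which rose and 34.6% fell). The minimum of 1 FPKM was met only through control+OP by 4 of the 20, so these counts are a description and support nothing. The 3 with the smallest p in Cd+OP against Cd were not the most leghaemoglobin-like. Sucrose synthase SS (GLYMA_13G114000), which feeds sucrose into nodule and root metabolism, fell without cadmium and rose with it (log2 -1.32 ± 0.0302 and 1.10 ± 0.0304). GLYMA_01G028500 rose in both (log2 2.65 ± 0.0968 and 2.91 ± 0.115), and GLYMA_20G245300, annotated as 2-isopropylmalate synthase, fell in both (log2 -0.70 ± 0.0489 and -0.96 ± 0.0497).

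**Figure D5:**
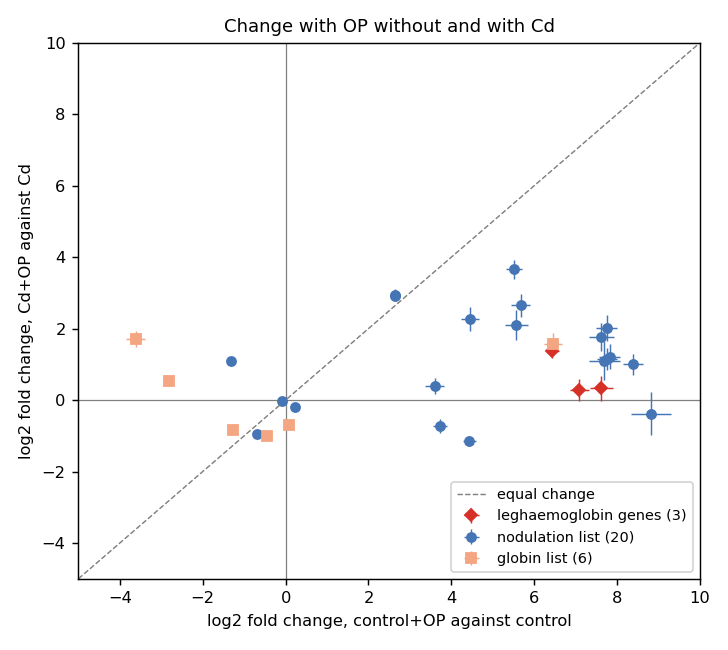
Log2 fold change of Cd+OP against Cd (vertical) and of control+OP against control (horizontal) for the 3 leghaemoglobin genes, the 20 tested nodulation genes and the 6 tested genes of the globin list; bars are SE (n = 3 libraries per group) and the dashed line marks equal change. The leghaemoglobin genes lie at 6.44 to 7.62 on the horizontal and 0.29 to 1.39 on the vertical axis.

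The genes whose levels were most like the summed leghaemoglobins over the 12 libraries (Pearson's r of log2(FPKM + 1), a description that rests largely on the 3 control+OP libraries) included several of this list. The 8 nearest had r of 0.996 to 0.999. They were GLYMA_15G045000, GLYMA_08G120100 and GLYMA_14G052400, annotated with the peribacteroid membrane that encloses the bacteria in a nodule cell, GLYMA_13G364400, annotated with nodulation, and the oxygen carrier GLYMA_20G191200. The others were GLYMA_15G260700, an aspartic-type endopeptidase, GLYMA_12G135000, annotated with thiamine synthesis, and GLYMA_08G012800, annotated with response to oxygen-containing compounds. Of these GLYMA_13G364400 had the highest level, 206.6 ± 5.69 FPKM in control+OP and 0.965 ± 0.604 FPKM in control, and 3.28 ± 0.246 FPKM in Cd+OP and 1.4 ± 1.12 FPKM in Cd (SD, n = 3 each). GLYMA_15G260700, GLYMA_08G120100 and GLYMA_14G052400 averaged under 1 FPKM in every group but control+OP, so they met the minimum of 1 FPKM only through it. GLYMA_08G012800 did too, at means of 0.473, 1.24 and 0.305 FPKM in control, Cd+OP and Cd. The likeness of such genes supports nothing.

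The trace levels outside control+OP can be set against each gene's own control+OP level. Relative to its mean in control+OP, LGB1 stood at 2.30% in Cd+OP, 1.15% in control and 0.825% in Cd, and GLYMA_20G191200 stood at 2.64%, 1.13% and 0.836% in the same groups. GLYMA_10G199000 stood at 1.58% in Cd+OP, 0.71% in control and 1.22% in Cd, and LBA at 1.85%, 0.492% and 1.40%. The peribacteroid genes GLYMA_15G045000, GLYMA_14G052400, GLYMA_08G120100 and GLYMA_13G328800, picked after their values were seen, stood at 1.32 to 2.07% in Cd+OP. They stood at 0.44 to 0.51% in control and 0.44 to 0.61% in Cd, where GLYMA_10G199000 and LBA lay above them. Over all 9 peribacteroid genes the values ran from 1.32 to 122% in Cd+OP, 0.44 to 106% in control and 0.44 to 119% in Cd. Cd library 3 was the highest of the Cd libraries for all 3 leghaemoglobin genes, for GLYMA_20G191200 and for 8 of 9 peribacteroid genes. Control library 1 was the lowest of the control libraries for all 3 leghaemoglobin genes, for GLYMA_20G191200 and for 6 of 9 peribacteroid genes. The shares of all genes with Cd library 3 highest or control library 1 lowest were not counted, so these counts do not set the genes apart. What sets these trace levels was not tested.

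Genes of the processes that supply or use leghaemoglobin moved in both directions. Of all genes tested, 34.6% rose and 27.2% fell in control+OP against control, and 36.4% rose and 34.6% fell in Cd+OP against Cd. The haem synthesis list, set by words in the annotation, holds genes for the oxygen-binding group and also for sirohaem, such as GLYMA_08G150800. Its genes rose in 11 of 31 tested members and fell in 7 in control+OP against control, with a median of 0.045. They rose in 10 and fell in 8 in Cd+OP against Cd, with a median of 0.14. These counts are near the shares over all genes. Among them the glutamyl-tRNA reductase gene GLYMA_08G064700, for the entry step of tetrapyrrole synthesis, rose in both (log2 0.33 ± 0.0405 and 0.81 ± 0.0416). The hydroxymethylbilane synthase gene GLYMA_12G021100 rose in Cd+OP against Cd (log2 1.90 ± 0.191), whereas GLYMA_08G150800 of the sirohaem branch fell in both (log2 -0.87 ± 0.0507 and -0.53 ± 0.0506).

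Iron storage genes fell in 11 of 20 tested members and rose in 4 in each of these comparisons (medians -0.33 and -0.46), against 27.2% of all genes lower without cadmium and 34.6% with it. The gene of this list that is also on the nodulation list, GLYMA_05G121600, an iron and manganese transporter by annotation, rose in both and stood at 28.1 ± 1.22 FPKM in control+OP and 1.29 ± 0.228 FPKM in control, and at 1.5 ± 0.811 FPKM in Cd+OP and 0.287 ± 0.126 FPKM in Cd (SD, n = 3 each; log2 4.44 ± 0.222 and 2.26 ± 0.336). The members with the smallest p in Cd+OP against Cd were GLYMA_08G181900 and GLYMA_08G076000, with the same transporter annotation, and the ferroxidase gene GLYMA_14G056800, at log2 -1.95, -1.55 and 0.85.

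Ammonium and ureide genes, which take up the product of nitrogen fixation in nodules, rose in 17 of 29 tested members and fell in 8 in control+OP against control (median 0.20), and rose in 13 and fell in 8 in Cd+OP against Cd (median 0.14). Over all genes 34.6% rose and 27.2% fell without cadmium, and 36.4% rose and 34.6% fell with it. The list was set by words in the annotation, and 7 of the 29 are folylpolyglutamate synthase genes, of another pathway. The asparagine synthase genes GLYMA_11G171400, GLYMA_11G170300 and GLYMA_14G195000 rose in Cd+OP against Cd, by 1.94, 1.64 and 0.93 on the log2 scale. Of 3 tested low oxygen genes, the chaperone genes GLYMA_20G065900 and GLYMA_13G003700 rose in control+OP against control and fell in Cd+OP against Cd (log2 0.75 and 0.31, and -1.65 and -1.29). The transcription factor gene GLYMA_19G213100 did the opposite (log2 -3.05 and 0.27), as did the chromosome 11 globins.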

How the data were processed

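Root RNA was sequenced in 12 libraries. The deposited table gives, per the file headers, FPKM and counts per gene and library. The counts are whole numbers but not a plain tally (10000 values equal 4, against 5019 at 3 and 3231 at 5), so they were treated as estimated counts that the authors deposited. The sources used here name no aligner, counting tool, build or annotation. The 30340 of 49128 genes that averaged 1 FPKM or more were tested with edgeR 4.0.16 in R 4.3.3 (quasi-likelihood, TMM scaling, 1 mean per group over all libraries), two-sided. P-values were adjusted by Benjamini and Hochberg's method over all 30340, and those under 0.05 were called. SE is the size of the log2 fold change divided by the square root of F. The code was tested on simulated data. Members and lists were chosen with earlier results of these data known; lists were set by words in the annotation. Named are the leghaemoglobin genes, the globin list, 3 genes on each side, the 8 most alike, and the 3 smallest p per list in Cd+OP against Cd. GLYMA_10G198700, the peribacteroid genes and GLYMA_05G121600 were singled out further after their values were seen. Alternatives used DESeq2 1.42.0, limma 3.58.1 on log2(FPKM + 1) and log2(FPKM + 0.1), other filters and scaling, counts divided by 4, only the 2 groups compared, a replicate block and leaving out each library. Promoter motifs and sequences were not analysed here.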

Additional observations from a re-analysis of the deposited data

Results flagged for a closer look

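The change with OP differed between roots with and without cadmium for all 6 tested genes of the globin list (edgeR's interaction term, added after the data were seen, 3 libraries per group; 63.9% of all genes were called in it). The log2 difference, the change with cadmium minus the change without, was 5.32 for GLYMA_11G121700 (adjusted p = 2.98e-13, edgeR) and 3.33 for GLYMA_11G121800 (adjusted p = 1.31e-23, edgeR), both of which fell without cadmium and rose with it. It was 0.44 for GLYMA_04G079200 (adjusted p = 4.80e-05, edgeR) and -0.57 for GLYMA_14G140400 (adjusted p = 1.60e-07, edgeR), which fell in both settings. It was -0.79 for the leghaemoglobin reductase gene GLYMA_07G232900 (adjusted p = 7.49e-12, edgeR). It was -4.88 for GLYMA_20G191200 (adjusted p = 5.57e-10, edgeR), which rose in both. For the 3 leghaemoglobin genes of chromosome 10 this difference includes the libraries that brought them to notice and was not tested.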

How the results depend on the processing

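Of 415 pairs of a result and an alternative, 404 kept direction and side of the threshold, or a count within 1.5 times. For counts only the total was compared, not the split by direction, which was less steady. In control+OP against control 10496 genes were called higher and 8265 lower, but 9350 and 9404 with only the 2 groups compared. In Cd+OP against Cd it was 11055 and 10498, but 12125 and 9084 with limma on log2(FPKM + 1). The shares of all genes that rose or fell thus depend on the fit. With a mean of at least 5 FPKM fewer genes were tested, and 11517 genes were called in control+OP against control, 12882 in Cd+OP against Cd, 13402 in Cd against control, 12239 in Cd+OP against control+OP and 11804 in the interaction. The numbers without that filter were 18761, 21553, 23132, 20229 and 19381. With it, 10 haem synthesis genes were called in each OP comparison (18 before), and 9 and 8 iron storage genes (15 before) without and with cadmium. Leaving out 1 library gave log2 changes from -0.068 to 0.99 for GLYMA_10G199000 in Cd+OP against Cd (adjusted p from 0.00427 to 0.84 over all alternatives, edgeR, DESeq2 or limma), 1.06 to 1.77 for LGB1 (2.03e-07 to 7.36e-04) and 0.023 to 0.75 for LBA (0.0928 to 0.957). Same-numbered libraries did not deviate together (correlations of -0.014 to 0.052), so they share only a number. With a replicate block 21445 genes were called in Cd+OP against Cd, and LGB1, GLYMA_10G199000 and LBA stood at 1.39, 0.30 and 0.34. Outside control+OP the leghaemoglobin genes rest on 0 to 129 counts per library, which limits every comparison among those groups.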
